A study of Homo sapiens with 14 samples.

Results

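The regions described here are peaks of a ZNF143 antibody found with and without depletion of the protein, at promoters from which 2 protein-coding genes are transcribed in opposite directions. A region was chosen by its calls: it had to hold a peak of both deposited lists, overlapping by 1 bp or more, and its centre had to lie from 2 kb upstream to 1 kb downstream of the transcription start sites (TSSs) of a gene on the minus strand and a gene on the plus strand that begin at most 1 kb apart. This selected 540 of the 14794 regions shared by the lists and of the 40687 merged regions in all, of which 36.4% were shared. The 540 members lay at 532 pairs of genes and named 1064 genes, 8 pairs holding 2 members each. In 526 members each list contributed a single peak. That every member had a peak in both lists is what the rule used and is therefore not a result.

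ChIP-seq of ZNF143 was performed in HEK293T cells, an established human embryonic kidney line, in a derivative labelled as the clone HEK_CloneZD29, in which ZNF143 carries the FKBP12F36V degron tag. The 4 untreated samples and the 4 samples given 0.5 µM dTAG-V1 for 30 min carry the same tag, and dTAG-V1 directs the tagged protein to degradation. Chromatin was precipitated with the Proteintech antibody against ZNF143, a polyclonal that by the study's account also binds CTCF, so that a peak kept after depletion need not mark ZNF143. Which protein gave the signal at a member was not tested. Both groups derive from a single clone, each is represented by 1 peak list, and the peak names of the untreated list read DMSO where the sample labels read untreated. The CTCF samples, 3 per condition, were not analysed here. There were 20429 untreated peaks and 35287 dTAG-V1 peaks. Neither list has replicate columns or read counts, so that the depth is unknown, no test between conditions was possible, and the lists cannot show how far ZNF143 was depleted. Shares are given with 95% Wilson intervals, and differences between shares with 95% Newcombe intervals. Both cover counting error only.

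ZNF143 is a zinc finger transcription factor of the C2H2 type, known from the promoters of snRNA genes and of many housekeeping genes. It recognises a long element, the SBS, whose core reads TCCCA and whose extended form begins with ACTACA. At a divergent promoter, 2 genes lie head to head and share the stretch between their start sites, an arrangement that is frequent among housekeeping genes of metabolism, DNA repair and RNA processing.

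The SBS sites that carry the results below are shown first. Each line gives the best-scoring site within 200 bp of the untreated summit of a member, in hg38, read 5′ to 3′ on the strand named. The members are 5 of those with the highest untreated scores, OSCAR/NDUFA3 and COA3/CNTD1 from the mitochondrial lists, and TMEM59/TCEANC2, chosen with earlier results of these data known. Capitals mark positions 4 to 9 and 12 to 17 of the 25-base matrix, which hold the ACTACA element and the TCCCAG core. All sites passed the strict threshold of p 1e-06 per position.
CDCA3/USP5 (chr12:6852388-6852412, minus strand): gagACTACAagTCCCATggtgcatc
NPRL2/CYB561D2 (chr3:50351075-50351099, plus strand): ggaACTACAatTTCCATagtgctcc
RANBP10/TSNAXIP1 (chr16:67806748-67806772, minus strand): tatACTACAtcTCCCAGaattctct
UFD1/CDC45 (chr22:19479437-19479461, plus strand): acgACTACActACCCACaatgcact
ZMAT5/UQCR10 (chr22:29767117-29767141, minus strand): caaACTACAacTCCCAGaagccctc
OSCAR/NDUFA3 (chr19:54102723-54102747, plus strand): gggACCACAacTCCCAGagtgctcc
COA3/CNTD1 (chr17:42798750-42798774, minus strand): cggACTACAacTCCCAGagtccact
TMEM59/TCEANC2 (chr1:54053458-54053482, minus strand): agaACTACAtgCCCCAGcctgcccc

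The letters CCCA of the core were kept in all of these sites except that of NPRL2/CYB561D2, whereas the bases between the blocks and after the core varied. The element occurred on either strand, and in NPRL2/CYB561D2, OSCAR/NDUFA3 and TMEM59/TCEANC2 it lay within an exon of the pair. In ZMAT5/UQCR10 it lay between the TSSs and within an exon of another annotated gene. Whole stretches between the start sites of 6 further pairs show how sites were arranged in the shared sequence. They are printed on the plus strand from the base after the minus-strand TSS to the base before the plus-strand TSS, outside every annotated exon. Capitals mark strict SBS sites, which read as their reverse complement where the site lies on the minus strand. The last pair, of histone genes, is shown because no site was found there.
TTC13/ARV1 (chr1:230978876-230978980, plus strand): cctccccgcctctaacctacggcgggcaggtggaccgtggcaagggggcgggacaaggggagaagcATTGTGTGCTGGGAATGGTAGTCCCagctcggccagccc
EIF2AK3/RPIA (chr2:88691519-88691672, plus strand): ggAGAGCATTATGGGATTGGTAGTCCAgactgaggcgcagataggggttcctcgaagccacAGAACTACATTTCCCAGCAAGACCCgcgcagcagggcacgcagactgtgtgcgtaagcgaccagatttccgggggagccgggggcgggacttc
CALR3/C19orf44 (chr19:16496168-16496393, plus strand): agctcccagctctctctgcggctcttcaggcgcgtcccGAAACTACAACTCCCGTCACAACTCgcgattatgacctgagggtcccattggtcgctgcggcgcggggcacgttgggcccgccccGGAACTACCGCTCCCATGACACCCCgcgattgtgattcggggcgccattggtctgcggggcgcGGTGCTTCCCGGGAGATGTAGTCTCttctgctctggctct
MRPL50/ZNF189 (chr9:101398619-101398850, plus strand): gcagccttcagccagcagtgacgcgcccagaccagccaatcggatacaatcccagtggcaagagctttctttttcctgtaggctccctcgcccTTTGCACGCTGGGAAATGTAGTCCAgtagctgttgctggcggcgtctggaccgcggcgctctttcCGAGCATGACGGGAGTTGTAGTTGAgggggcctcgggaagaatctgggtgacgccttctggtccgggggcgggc
NTHL1/TSC2 (chr16:2047867-2047966, plus strand): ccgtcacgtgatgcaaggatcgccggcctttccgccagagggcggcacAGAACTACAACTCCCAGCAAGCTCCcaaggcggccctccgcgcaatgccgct
H2AC25/H2BC26 (chr1:228457874-228458102, plus strand): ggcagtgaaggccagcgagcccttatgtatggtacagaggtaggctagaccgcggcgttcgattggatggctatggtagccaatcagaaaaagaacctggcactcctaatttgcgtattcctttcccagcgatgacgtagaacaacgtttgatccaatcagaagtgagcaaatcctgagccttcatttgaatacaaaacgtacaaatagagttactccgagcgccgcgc

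TTC13/ARV1 and NTHL1/TSC2 held 1 site in the shared stretch, EIF2AK3/RPIA and MRPL50/ZNF189 2, and CALR3/C19orf44 3. The capitals do not mark CTCF hits. NTHL1/TSC2 also had a strict CTCF hit within 200 bp of the summit of either list, and was 1 of 5 members with strict hits of both motifs. NTHL1 encodes a DNA glycosylase of base excision repair and TSC2 a subunit of the complex that restrains mTORC1. EIF2AK3 is a kinase of the unfolded protein response and RPIA an enzyme of the pentose phosphate pathway.

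Among the members, the values of a peak within its own list spanned a wide range. The score of a peak is 10 times its −log10 q-value, and the fold enrichment compares the summit with the local background. In the untreated list the fold enrichment ranged from 1.58 to 39.0, with a median of 7.46 and quartiles of 3.76 and 24.4. In the dTAG-V1 list it ranged from 1.88 to 35.8, with a median of 4.54 and quartiles of 3.08 and 16.0. The lists have separate scales, so that a fold in one was not compared with a fold in the other. Members occupied ranks 1 to 20336 of the untreated list and 8 to 35117 of the dTAG-V1 list, so that the group reached from the strongest untreated peak to some of the weakest. Of the 540 members, 180 (33.3%, 29.5 to 37.4%) were in the highest decile of the untreated score and 230 (42.6%, 38.5 to 46.8%) in that of the dTAG-V1 score. The highest dTAG-V1 decile also held 35.8% of the shared regions at non-divergent protein-coding promoters and 16.98% of those away from protein-coding promoters. Of the 180 members in the highest untreated decile, 179 (99.4%, 96.9 to 99.9%) were in the highest decile of both lists. This share was not computed for all 2034 shared regions in the highest untreated decile, so it is not shown to be particular to members. The dTAG-V1 list is also longer, 35287 peaks against 20429, so that its highest decile holds more peaks.

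**Figure D1:**
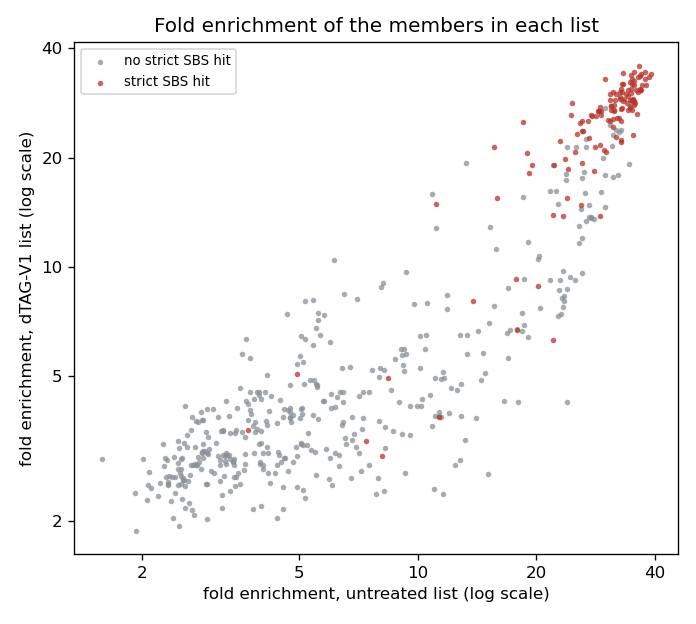
Fold enrichment of the 540 members in the untreated list (horizontal) and the treated list (vertical), both on log scales, with 1 point per region. Red points have a strict SBS hit within 200 bp of the untreated summit and grey points do not. Red points gather at the upper right, with medians of 31.5 (untreated) and 27.0 (dTAG-V1).

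The peak with the highest score of the untreated list belonged to a member, that of CDCA3/USP5. CDCA3 promotes entry into mitosis and USP5 is a deubiquitinase that disassembles free ubiquitin chains. Its score was 380426 with a fold enrichment of 35.5 and its summit lay in an intron of USP5, 787 bp from the midpoint of the TSSs, and in the dTAG-V1 list it ranked 9 with a fold of 34.4. NPRL2/CYB561D2 ranked 12 in the untreated list, with a score of 243363 and a fold of 39.0, the highest fold of any member. NPRL2 is a subunit of the GATOR1 complex. The remaining 8 of the 10 highest were VCPIP1/C8orf44-SGK3, RANBP10/TSNAXIP1, NUDCD1/ENY2, UFD1/CDC45, TTC13/ARV1, CALR3/C19orf44, ZMAT5/UQCR10 and CCDC163/MMACHC. Their untreated scores lay between 185056 and 234377 and their untreated ranks between 15 and 41. All 10 had a strict SBS site within 200 bp of the summit. In the dTAG-V1 list 9 of the 10 ranked between 8 and 55, and CCDC163/MMACHC ranked 272. TTC13/ARV1 had the highest dTAG-V1 rank of any member, 8, with a fold of 34.3.

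A strict SBS hit was found in 128 of the 540 members (23.7%, 20.3 to 27.5%). Hits at the more permissive p 1e-05, the threshold set for the main analysis, were found in 37.0% (33.1 to 41.2%). Both shares are set beside those of promoters without a peak. In the 181 divergent pairs that had no peak in either list, windows of the same 401 bp at the midpoint of the TSSs held a strict hit in 1.66% and a permissive hit in 16.6%. Windows placed in the same way at the 533 divergent pairs with a shared region held them in 18.4% (15.3 to 21.9%) and 29.6% (25.9 to 33.7%). In windows at the TSS of the 18260 single protein-coding promoters the shares were 5.81% and 18.1%. The median GC content was 61.3% at members, 68.8% at the pairs without a peak and 61.8% at the single promoters. Strict hits, the rarer at pairs without a peak, are therefore used below. The matrices were learned at the strict p on merged peaks of the odd-numbered autosomes, which include members. The contrast with promoters without a peak is therefore a description.

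Strict SBS sites were concentrated at the strongest peaks. In the highest decile of the untreated score, 120 of 180 members (66.7%, 59.5 to 73.1%) had one. In the second decile 7 of 95 members (7.37%) had one, and in deciles 3 to 10 a single member of 265 did. The shares also declined at the shared peaks of non-divergent promoters, with 70.6% in the highest decile and 12.4% in the second. The 128 members with a strict site had a median untreated fold of 31.5 (quartiles 26.1 and 34.8) and a median rank of 460. The 340 members without any SBS hit had a median untreated fold of 4.80 (quartiles 3.23 and 9.32) and a median rank of 6919. The 72 members with a permissive hit only lay between, with a median fold of 9.11. In the dTAG-V1 list the medians of the 3 groups were 27.0, 3.68 and 5.23.

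**Figure D2:**
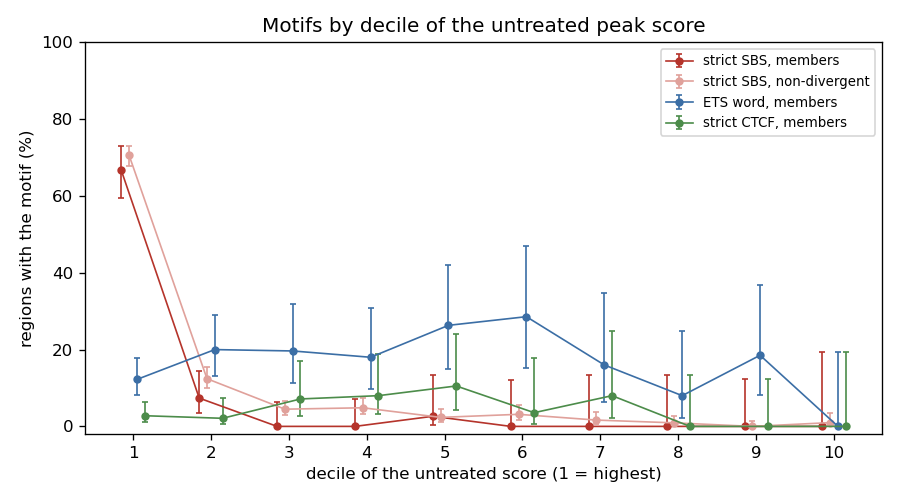
Share of regions with a motif (vertical, %) in each decile of the untreated score (horizontal, 1 is the highest), with 95% Wilson intervals. Strict SBS hits fall from 66.7% of the members in decile 1 to 7.37% in decile 2, as at non-divergent shared promoters. The ETS word lies between 12.2% and 28.6% in deciles 1 to 6. In deciles 7 to 10, of 25, 25, 27 and 16 members, it is at 16%, 8%, 18.5% and 0%.

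A strict site was not found at every strong peak. Of the 180 members in the highest decile, 60 had no strict SBS hit, and 37 had no SBS hit at either threshold. By score, the first of these 37 were GUCD1/SNRPD3 with an untreated fold of 29.5, SLC7A6OS/PRMT7 with 30.8, ESF1/NDUFAF5 with 34.4 and TOMM70/LNP1 with 29.1. They were singled out after their values were seen. SNRPD3 is a core protein of the spliceosomal snRNPs, NDUFAF5 an assembly factor of respiratory complex I and TOMM70 a receptor of the outer mitochondrial membrane. MRPL46/MRPS11, where both genes encode mitochondrial ribosomal proteins, had an untreated fold of 32 at rank 242 and only a permissive hit.

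Several members carried more than 1 strict site. Of the 128, 73 had 1 site, 44 had 2, 9 had 3, and 1 each had 4 and 5. The member with 5 lay at MICOS13/HSD11B1L, where an intron of another gene, RPL36, overlaps, and the member with 4 was CDCA3/USP5. MICOS13 is a subunit of the complex that shapes mitochondrial cristae. Among the 69 neighbouring sites of the 55 members with more than 1, the starts were a median of 64 bp apart, from 33 to 264 bp. In 33 cases the neighbours had the same strand and in 36 opposite strands.

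Sites lay close to the summits and had no preferred direction. The best site of each of the 128 members was a median of 19.5 bp from the untreated summit (quartiles 9 and 45.2) and 21.5 bp from the dTAG-V1 summit. It was within 50 bp of the untreated summit in 77.3% (69.4 to 83.7%) and of the dTAG-V1 summit in 76.6%. It was on the plus strand in 68 of 128 members (53.1%, 44.5 to 61.6%) and on the strand of the nearer gene in 65 (50.8%, 42.2 to 59.3%). The median distance to the nearer TSS was 50 bp. Between the start sites as GENCODE places them at gene level lay 56 of the 128 best sites (43.8%, 35.5 to 52.4%).

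The distance between the TSSs of a pair ranged from 1 to 995 bp among the members, with a median of 129 bp. Of the untreated summits, 41.3% (37.2 to 45.5%) lay between the TSSs, 151 lay beyond the minus-strand TSS and 166 beyond the plus-strand TSS, so that neither side was favoured. Of the dTAG-V1 summits, 34.3% (30.4 to 38.4%) lay between, 174 beyond the minus-strand TSS and 181 beyond the plus-strand TSS. Where the TSSs were 0 to 50 bp apart, 24.1% of the untreated summits lay between them, and where they were 401 to 1000 bp apart, 60.9% did. These shares depend on which start site is taken. The gene-level TSS of the annotation is the most upstream start of any transcript. With the Ensembl canonical transcripts of the same genes, the TSSs were a median of 427 bp apart (quartiles 211 and 4102 bp). Between them lay 75.4% (71.6 to 78.8%) of the untreated summits, 69.3% (65.2 to 73.0%) of the dTAG-V1 summits and 79.7% (71.9 to 85.7%) of the best SBS sites. Each canonical stretch contains the gene-level one, so these shares could not fall, and their rise is not a result. When pairs were selected anew with canonical TSSs, 67.6% (63.8 to 71.1%) of the untreated summits lay between the TSSs.

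**Figure D3:**
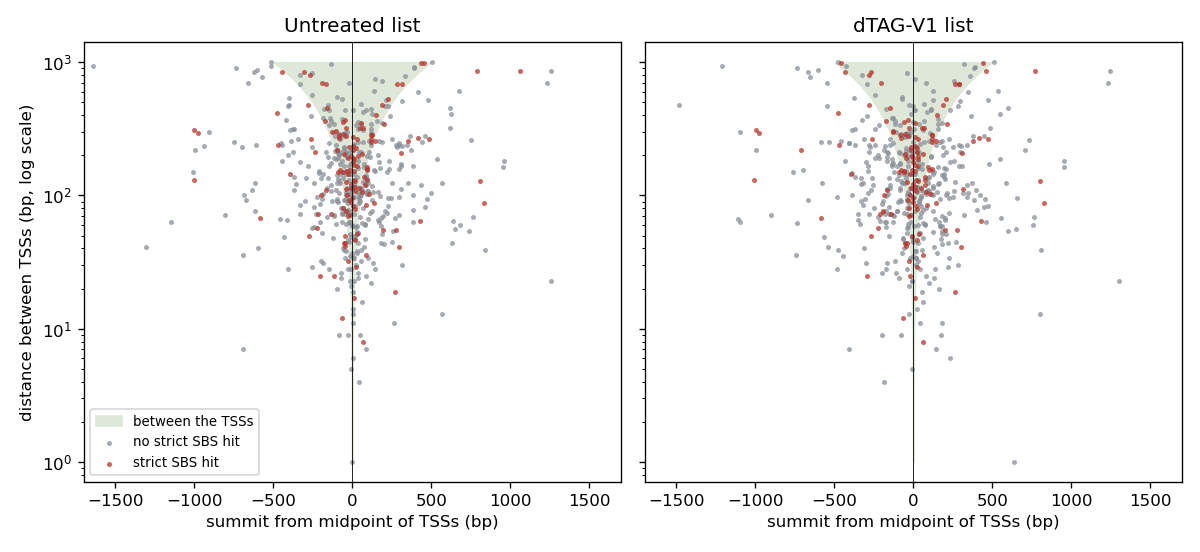
Position of the summit relative to the midpoint of the 2 TSSs (horizontal, bp, positive towards the plus-strand gene) and distance between the TSSs (vertical, bp, log scale) for the 540 members, in the untreated list (left) and the dTAG-V1 list (right). The shaded wedge is the stretch between the TSSs. Points spread to both sides of the midpoint, and red points (strict SBS hit) sit nearer to it, with a median distance of 82.5 bp in the untreated list against 116 bp for grey points. The TSSs are a median of 157 bp apart for red points and 120.5 bp for grey points.

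In terms of annotation, 273 untreated summits (50.6%) were in an exon of any annotated gene, 81 (15.0%) in an intron and 186 (34.4%) between genes. For the dTAG-V1 list the counts were 288, 98 and 154. Members with a strict SBS site had 55.5% (46.8 to 63.8%) of their untreated summits between the gene-level TSSs, against 36.9% (32.4 to 41.7%) of members without one. For the dTAG-V1 summits the shares were 55.5% (46.8 to 63.8%) and 27.7% (23.6 to 32.2%).

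The untreated and dTAG-V1 summits of a member were a median of 21.5 bp apart, with quartiles of 6 and 86 bp and a maximum of 1083 bp. At members with a strict SBS site the median was 4 bp, and 72.7% (64.4 to 79.6%) had their summits within 10 bp, against 23.5% (19.7 to 27.9%) of members without one. Score moved with this measure. Within the highest untreated decile, 91 of 120 members with a strict site (75.8%, 67.4 to 82.6%) and 42 of 60 without one (70.0%, 57.5 to 80.1%) had summits within 10 bp, so that the intervals overlapped. In deciles 2 to 10, members without a strict site had summits a median of 54 bp apart, and 15.6% (12.2 to 19.8%) were within 10 bp. The part of the score in the placement of summits was not tested. Among the 60 members of the highest decile without a strict site, the dTAG-V1 summit was nearer to the midpoint of the TSSs in 44, farther in 12 and equally far in 4. The summits of these 60 were a median of 6 bp apart (quartiles 3 and 13 bp), so that most moves were small. In the 120 members of that decile with a strict site, the dTAG-V1 summit was nearer in 54, farther in 45 and equally far in 21. In the 352 members of the lower deciles without a strict site it was nearer in 159 and farther in 186.

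Summits were over 200 bp apart in 68 members, of which 6 had a strict SBS site. Among members with a single peak in each list, the 3 largest distances were at BLVRB/SPTBN4 (1083 bp), APBA3/MRPL54 (915 bp) and H2AC25/H2BC26 (883 bp). At APBA3/MRPL54, whose TSSs are 990 bp apart, both lists had a strong peak, with folds of 15.9 and 15.5 at ranks 707 and 602. MRPL54 encodes a mitochondrial ribosomal protein. The untreated summit lay 456 bp from the midpoint towards MRPL54, 8 bp from the nearer of 2 strict SBS sites, and the dTAG-V1 summit lay 459 bp from the midpoint towards APBA3. Within 200 bp of the dTAG-V1 summit there were strict hits of both SBS and CTCF, whereas no CTCF hit lay that near to the untreated summit. BLVRB/SPTBN4 and H2AC25/H2BC26 had weak peaks in both lists, with untreated folds of 2.92 and 1.91 and dTAG-V1 folds of 4.06 and 2.38, and no SBS hit.

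Divergent promoters held a shared region more often than single promoters did. Counting each gene in 1 pair only, the annotation had 825 divergent pairs, of which 533 (64.6%, 61.3 to 67.8%) had a shared region in the window. A region in the windows of neighbouring pairs was assigned to 1 of them, so that this count is not that of the pairs with members. Of the 18260 protein-coding promoters outside such pairs, 4843 (26.5%, 25.9 to 27.2%) had one. The window for a pair, where the promoters of both genes overlap, was no wider than that for a single promoter. With centres within 500 bp of the midpoint or of the TSS, the shares were 59.5% (56.1 to 62.8%) and 21.3% (20.7 to 21.9%). Of the remaining pairs, 31 had untreated peaks only, 71 dTAG-V1 peaks only, 9 had peaks of both lists that did not overlap, and 181 had none. In 5 classes of distance between the TSSs the share lay between 61.8% and 70.9%, with intervals that overlapped. Gene lists differed in this contrast. Of pairs with a gene of any mitochondrial list 76.2% had a shared region, against 65.6% of 270 single promoters. For import and chaperone genes the shares were 77.8% of 9 pairs and 84.4% of 32 single promoters. For mitochondrial gene expression factors they were 50% of 8 and 74.3% of 35. In the other lists the share was higher at divergent pairs. For replication-dependent histones, however, the shares were nearly equal, 38.5% of 13 pairs and 38.1% of 42 single promoters. For mitochondrial carriers the share of pairs rested on 1 of 2. Whether the genes were expressed in these cells was not measured in the peak lists, and its part in the difference between divergent pairs and single promoters was not tested.

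**Figure D4:**
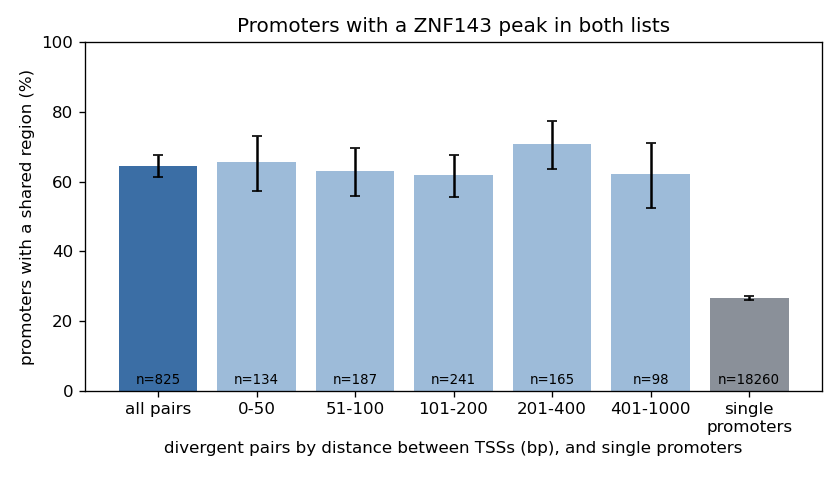
Share of promoters with a shared region (vertical, %), for all 825 divergent pairs, for pairs in 5 classes of distance between the TSSs, and for 18260 single promoters, with 95% Wilson intervals. All classes of divergent pairs lie between 61.8% and 70.9%, above the 26.5% of single promoters.

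Among merged regions with an untreated peak, 73% were shared. At divergent promoters 540 of 596 were (90.6%, 88.0 to 92.7%), at non-divergent promoters 4418 of 5113 (86.4%, 85.4 to 87.3%) and away from promoters 9836 of 14566 (67.5%, 66.8 to 68.3%). These counts use the calls that defined the members and are given as a description. They also depend on the length of the dTAG-V1 list, which may have passed a looser filter than the untreated list. The 56 regions at divergent promoters with an untreated peak only had a median untreated fold of 2.92, and the 101 with a dTAG-V1 peak only a median dTAG-V1 fold of 2.57, with strict SBS hits in 5.36% and 3.96%.

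Set beside the 4418 shared regions at non-divergent protein-coding promoters, members had SBS shares that were not shown to differ, and a higher share with the ETS word. Permissive SBS hits were found in 37.0% and 35.7%, a difference of 1.32 percentage points (−2.90 to 5.70) that was −3.19 points on the even-numbered autosomes, which were not used to learn the motif, and strict hits in 23.7% and 22%, a difference of 1.70 points (−1.91 to 5.65). The intervals include 0, and equal shares were not shown. By untreated decile, strict shares at members and non-divergent regions were 66.7% and 70.6% in decile 1 and 7.37% and 12.4% in decile 2. They were 0% and 4.48% in decile 3, 0% and 4.85% in decile 4, and 2.63% and 2.35% in decile 5, and the intervals overlapped in each. Decile 5, with 1 such member of 38, was the only decile where members had the higher share. The highest decile held a larger share of the members, as given below. The word ACTTCCGG, bound by ETS factors such as GABPA and ELK1, was found in 16.7% of members (13.8 to 20.04%) and 11.2% of non-divergent regions, a difference of 5.44 points (2.38 to 8.93). Its share was 6.08% at divergent pairs without a peak and 4.75% at single promoters. The word AAGATGG, the core recognised by YY1, was found in 14.6% and 11.6%, a difference of 2.995 points (0.0944 to 6.35). Strict hits of CTCF, the zinc finger protein of chromatin loop anchors, were found in 4.07% of members (2.71 to 6.09%) and 6.65% of non-divergent regions, a difference of −2.58 points (−4.15 to −0.446). At the permissive threshold CTCF hits were found in 15.7% and 19.1%, and the interval of the difference, −3.32 points (−6.38 to 0.182), included 0. At divergent pairs without a peak strict CTCF hits were found in 7.73% and permissive ones in 22.1%. These are 13 motif measures compared over regions of the same lists, without a test.

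The ETS word was less common where a strict SBS site was present, although the intervals overlapped. It was found in 13 of 128 members with a strict SBS site (10.2%, 6.03 to 16.6%) and in 77 of 412 without one (18.7%, 15.2 to 22.7%). Score moved with this measure too. Within the highest untreated decile the shares were 10.8% (6.44 to 17.7%) of the 120 members with a strict site and 15.0% (8.10 to 26.1%) of the 60 without one, against 19.3% (15.5 to 23.8%) of members without one in deciles 2 to 10. The 63 members with the ETS word and no SBS hit had a median untreated fold of 4.73, near the 4.91 of the 277 members with neither. The other words, counted on both strands, were at shares whose difference from the non-divergent regions had an interval that included 0. GCATGCGC of NRF1 was found in 6.85% of members and 5.12% of non-divergent regions, AGCCAAT of NF-Y in 10.4% and 9.69%, GGGGCGGG of SP and KLF factors in 29.3% and 26.6%, TGACGTCA of CREB and ATF factors in 3.89% and 3.19%, the E-box CACGTG in 13.1% and 11.9%, and the TATA word TATAAAA in 2.22% and 3.08%. The word ACTACAA, which overlaps the extended SBS, was found in 12.2% and 9.69%. Across windows at all single promoters the shares were 3.59% for NRF1, 8.25% for NF-Y, 30.1% for SP and KLF, 2.245% for CREB and ATF, 9.32% for the E-box, 4.47% for TATA, 7.46% for YY1 and 3.22% for ACTACAA. At the midpoint of the divergent pairs without a peak they were 7.18% for NRF1, 9.39% for NF-Y and 42.0% for SP and KLF. There they were also 2.21% for CREB and ATF, 13.8% for the E-box, 2.21% for TATA, 9.39% for YY1 and 1.10% for ACTACAA. For NRF1, SP and KLF and the E-box the shares were thus no lower at these pairs than at members.

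Members also ranked higher than the other shared regions. The highest untreated decile held 33.3% of members and 26.6% of non-divergent shared promoter regions, a difference of 6.69 points (2.63 to 10.97), and 6.88% of shared regions away from protein-coding promoters. The median untreated fold was 7.46, 5.34 and 3.35 in the 3 classes. The median width of the merged region was 746.5 bp for members, 698 bp for non-divergent promoters and 576 bp elsewhere. The GC content was 61.3% and 60.6% at the 2 kinds of promoter and 44.6% elsewhere.

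At 49 members, or 9.07%, at least 1 of the genes belonged to 1 of 5 mitochondrial lists, beside 63 of all 825 divergent pairs, or 7.64%. Of these 63 pairs, 48 (76.2%) had a shared region, beside 64.6% of all pairs. A strict SBS site was found at 13 of the 49 members, beside 23.7% of all members. The lists and the members were chosen with earlier results known, and none of these counts is a test. All 15 divergent pairs with a mitochondrial ribosomal protein gene had a shared region, giving 16 members with a median untreated fold of 9.90, 3 of them with a strict SBS site. MRPL46/MRPS11 had 2 such genes, with an untreated score of 97628 and summits 3 bp apart. MRPL50/ZNF189 had an untreated score of 86759 and a fold of 34.8, in the dTAG-V1 list 30.9, with 2 strict sites between the TSSs. Among subunits and assembly factors of the respiratory chain, 24 of 32 pairs (75%) had a shared region, 6 of the 24 members with a strict site. ZMAT5/UQCR10, with a subunit of complex III, had an untreated score of 185596 and a fold of 27.0. OSCAR/NDUFA3, with a subunit of complex I, had a score of 70605 and a fold of 30.8.

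COA3/CNTD1, with an assembly factor of cytochrome c oxidase, had an untreated fold of 36.6 and a dTAG-V1 fold of 30.7, with the same summit in both lists at a distance of 0 bp. Import and chaperone genes gave 7 members at 7 of 9 pairs. CHCHD4/TMEM43, with the import receptor of the intermembrane space, had a fold of 36.6, and FBXO15/TIMM21, with a translocase subunit of the inner membrane, one of 35.5. Factors of mitochondrial gene expression gave 4 members at 4 of 8 pairs, led by TUFM/SH2B1 with a fold of 31.7. TUFM is the mitochondrial elongation factor Tu. The next, GLOD4/MRM3, with a methyltransferase of mitochondrial rRNA, had a fold of 13.2 and no SBS hit. Its rank was 2946 among untreated peaks and 16877 among dTAG-V1 peaks. Of the mitochondrial carriers, CYP39A1/SLC25A27 was a member, with a fold of 28.1.

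**Figure D5:**
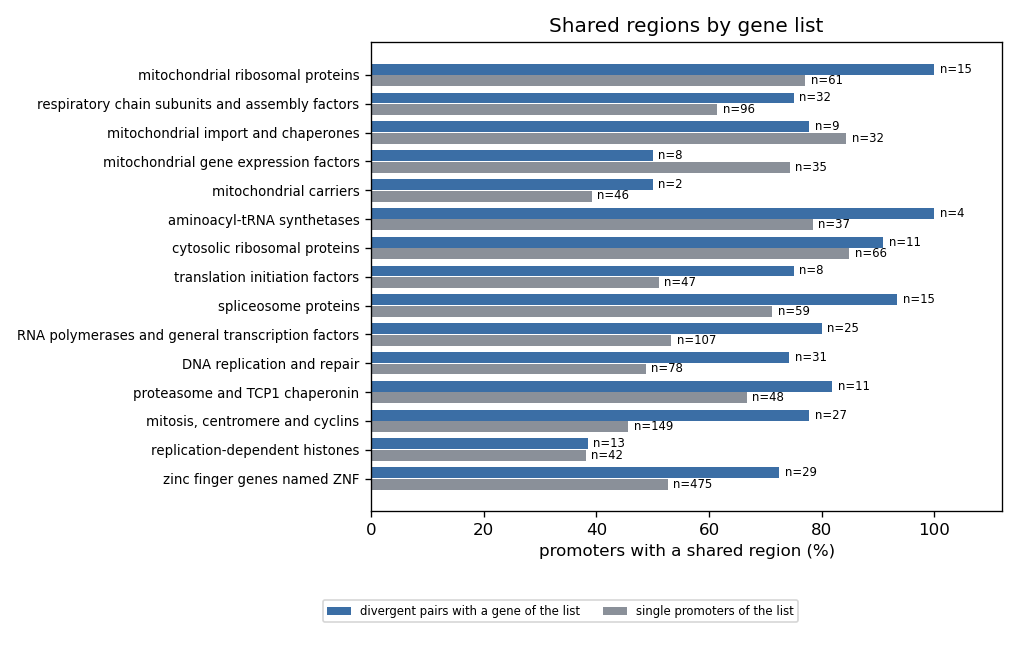
Share of promoters with a shared region (horizontal, %) for 15 gene lists, as divergent pairs with a gene of the list (blue) and as single promoters of the list (grey), with the number of promoters beside each bar. Mitochondrial ribosomal protein genes reach 100% of 15 pairs and 77.0% of 61 single promoters, and replication-dependent histone genes 38.5% and 38.1%. Single promoters have the higher share in the lists of mitochondrial import and chaperones and of mitochondrial gene expression.

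The counts for other housekeeping lists are set beside the same 64.6% of all divergent pairs with a shared region and 23.7% of all members with a strict site. Spliceosome proteins had shared regions at 14 of 15 pairs (93.3%), with GUCD1/SNRPD3 at a fold of 29.5 and CDC26/PRPF4 at 24.5. Cytosolic ribosomal proteins had them at 10 of 11 pairs, with PIDD1/RPLP2 at 22.2 and BTK/RPL36A at 26.1. At PIDD1/RPLP2 the summits were 261 bp apart, the untreated one within PIDD1 near a strict site and the dTAG-V1 one between the TSSs. Aminoacyl-tRNA synthetases had them at 4 of 4 pairs, none with a strict site. RARS2/ORC3, with the mitochondrial arginyl-tRNA synthetase, led with a fold of 31.4, and LYRM4/FARS2 followed with 7.03. Translation initiation factors had shared regions at 6 of 8 pairs, led by EIF2AK3/RPIA (37.7) and EIF2B4/SNX17 (33.0). The first of these enters the list by its symbol, since EIF2AK3 is a kinase and no initiation factor.

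RNA polymerases and general transcription factors gave 22 members at 20 of 25 pairs, with PPP1R13L/POLR1G at a fold of 29.6 and POLR1A/PTCD3 at 23.9. In both the summits of the 2 lists coincided at a distance of 0 bp and lay beyond the TSS of the minus-strand gene, in an intron. DNA replication and repair genes gave 23 members at 23 of 31 pairs, led by UFD1/CDC45 with a score of 199904 and NTHL1/TSC2 with 112275. CDC45 is a component of the replicative helicase. Genes of mitosis, centromere and cyclins gave 22 members at 21 of 27 pairs, 7 with a strict site. This list was made by gene symbol, and UFD1/CDC45 was its highest member as well. CEP290/TMTC3 followed with a score of 161977 and 2 sites. CEP290, in the list by its symbol, is a protein of the ciliary transition zone. The counts of this list thus include genes of other functions. Proteasome and chaperonin genes gave 10 members at 9 of 11 pairs with a median fold of 21.2, led by PSMD10/ATG4A (27.6) and PSMA2/MRPL32 (32.6). TCP1/MRPL18, with a subunit of the cytosolic chaperonin and a mitochondrial ribosomal protein, had a fold of 25.6, a permissive hit only, and ranked 992 and 1485 in the 2 lists.

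Of the lists with 5 or more members, zinc finger genes had the highest median untreated fold, 24.4, and histone genes the lowest, 2.60. Of 29 divergent pairs with a gene named ZNF, 21 (72.4%) had a shared region. Of the 20 members assigned to them, 10 had a strict SBS site and 13 were in the highest untreated decile, with a median dTAG-V1 fold of 17.7. Both genes were of this list in ZNF891/ZNF10 (30.2), ZNF668/ZNF646 (9.07), ZNF829/ZNF568 (27.1), ZNF425/ZNF398 (22.5) and ZNF75D/ZNF449 (32.4), and SCGB2B2/ZNF302 had a fold of 22.9. Of the 5, all but ZNF668/ZNF646 and ZNF425/ZNF398 had a strict site. In contrast, 5 of 13 pairs of replication-dependent histone genes (38.5%) had a shared region, none with an SBS hit and none in the highest decile. The 5 members H2BC21/H2AC20, H2AC25/H2BC26, H2BC4/H2AC6, H2BC11/H2AC11 and H2BC12/H2AC12 each pair an H2A gene with an H2B gene. Their untreated folds were between 1.91 and 2.81, their dTAG-V1 folds between 2.38 and 3.75, and none of their summits lay between the TSSs in either list. Histone genes include near-identical copies, so that these values are uncertain. How well reads could be placed there was not measured, and its part in the values was not tested.

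Of 2 members singled out with earlier results of these data known, TMEM59/TCEANC2 had an untreated score of 126135 and folds of 32.7 and 30.4, with 2 strict sites, 1 in an exon of each gene. NDUFB1/CPSF2 was weak, with folds of 4.74 and 3.85, no SBS hit and summits 150 bp apart. COA3/CNTD1, TUFM/SH2B1, MRPL46/MRPS11 and TCP1/MRPL18, each with the human counterpart of a gene named in the study, are described above. At the edges of the rule, the closest TSSs were those of NEK1/CLCN3, 1 bp apart, with an untreated fold of 9.14 and a dTAG-V1 fold of 3.46. PSMB1/TBP, with TSSs 995 bp apart, held the 2 members just inside the limit of 1 kb, with untreated folds of 3.25 and 7.97. The first pair outside it with a shared region was TXNDC12/BTF3L4 at 1008 bp, with an untreated fold of 27.2 and a dTAG-V1 fold of 15.8.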

How the data were processed

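The authors mapped the ChIP-seq reads to hg38 with bwa mem v0.7.17-r1188, kept uniquely mapped proper pairs with SAMtools v1.12, removed duplicates with Picard v2.25.6 and called narrow peaks with MACS2 v2.2.6 at a q-value of 0.01, without a named control, outside blacklisted regions. They deposited 1 list per condition of 4 samples. Per the methods, an untreated peak had to be found in each of the 4 replicates, whereas a treated peak needed only any 1 of its 4. Whether the deposited lists passed this filter, which is looser for the treated list, could not be told from them. The deposited score is 10 times the −log10 q-value, cut to a whole number. The deposited fold enrichment is the ratio of the summit to the local background, and the deposited −log10 q-value is that of the peak. All come from the authors' call and rank peaks within a list only. Depth is unknown, and a list grows with it, so that a peak near the threshold can be missing from a list without a change in binding.

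Lists were merged at 1 bp or more, and genes and TSSs were those of GENCODE release 44 (protein-coding, autosomes and X). Ranks and deciles follow the −log10 q-value within a list. Where a region held several peaks of a list, the one with the highest value stood for it. SBS1, SBS2 and CTCF matrices were learned on merged peaks of odd-numbered autosomes from a written seed with at most 2 mismatches, with 10 iterations at p 1e-06 and a pseudocount of 0.8. The SBS1 matrix came out as a shorter form of SBS2, and hits of both were counted together as SBS. Hits were sought within 200 bp of the untreated summit at p 1e-05 (permissive) and 1e-06 (strict), p being set by the base frequencies of the genome. The strict threshold was a listed alternative and was brought into the text after permissive hits were seen at pairs without a peak. The steps were tested on simulated data. The tools were samtools 1.23.1 and pysam 0.24.0 for the genome, pandas 2.3.3 and numpy 2.4.6 for tables, scipy 1.17.1 for intervals and matplotlib 3.10.9 for figures, under Python 3.11.15.

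The members and gene lists were chosen with earlier results of these data known. Members named in the text are the 10 with the highest untreated score, the 2 highest of each of the 15 lists, those with both genes in a list, the 3 with the largest distance between summits, those at the edges of the distance rule, and those with a gene the study names. TMEM59/TCEANC2 and NDUFB1/CPSF2 were added with earlier results known. Others are said to be chosen later. No test between conditions was possible with 1 list each. The alternatives were another q-value threshold, overlap, TSS, TSS distance, motif threshold, window, chromosome set and region centre.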

Additional observations from a re-analysis of the deposited data

How the results depend on the processing

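Each result was recomputed under other settings, and 35 of 49 such values stayed within the 95% interval of the first, or within 1.5 times it for a count. With peaks of a −log10 q of at least 5, the share of divergent pairs with a shared region was 60.1% instead of 64.6%. With 50% reciprocal overlap it was 55.5%, and 38.2% of members instead of 33.3% were in the highest untreated decile. With canonical TSSs, 68.5% of pairs had a shared region and 67.6% of untreated summits instead of 41.3% lay between the TSSs. Under these 3 settings, added for single promoters after seeing the data, the share of single promoters was 24.2%, 22.2% and 27.4% instead of 26.5%. Motif hits at p 5e-05 gave SBS in 59.3% and CTCF in 34.8% of members, and hits at p 1e-06 gave 23.7% and 4.07%, instead of 37.0% and 15.7%. In whole merged regions the shares were 44.4% for SBS, 24.8% for CTCF and 21.3% for the ETS word, which was 16.7% near the summit. A longer search finds more hits by its construction. On even-numbered autosomes, which were not used for learning, SBS hits were found in 32.5% of members, and the difference from non-divergent regions was −3.19 points instead of 1.32. The strict SBS share there was 23.7%, and 22.96% around the dTAG-V1 summit, both added after seeing the data. The cause of the other shifts was not tested. No paired analysis was possible because the lists carry no replicate columns, and for the same reason no replicate could be left out. Unknown depth limits which weak members were called in both lists.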
